A study of Mus musculus with 6 samples.

Results

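The common gamma chain cytokine receptors were compared between naive CD4 T cells that lacked Ly-6C and naive CD4 T cells that carried it. The family was taken as 7 named genes, Il2ra, Il2rb, Il2rg, Il15ra, Il7r, Il4ra and Il21r, and a gene was measured where a probe set carried its symbol alone, keeping the brightest probe set over the 6 arrays. Of the 7 genes, 6 were measured, each by 1 probe set, among 19938 genes in all. Il2rg, the gene of the common gamma chain itself, was not analysed here.

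Cells were taken from the peripheral lymph nodes of 6-week-old mice of the strain C57BL/6 Foxp3-GFP, in which green fluorescence marks cells that express Foxp3, the factor that defines regulatory T cells. There were 3 arrays of Ly-6C- cells and 3 of Ly-6C+ cells. Both populations were enriched on magnetic beads and sorted as TCRβ+ and CD4+ cells without CD8, low for CD44, and negative for CD25 and for Foxp3. CD25 is the product of Il2ra, so both groups had been selected to lack that chain at the surface before its transcript was measured. The labels name the arrays biological replicates without tying them to animals, so p-values measure the spread between these arrays. Having 3 arrays a group limits the precision of every value.

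Receptors of this family respond to IL-2, IL-4, IL-7, IL-9, IL-15 and IL-21. Each pairs the common gamma chain with a chain of its own, and both the IL-2 and the IL-15 receptor also contain the beta chain that Il2rb encodes. The intracellular parts bind JAK1 and JAK3, which phosphorylate STAT proteins, chiefly STAT5 for IL-2, IL-7 and IL-15, STAT6 for IL-4 and STAT3 for IL-21. In naive CD4 T cells IL-7 is the main survival cytokine of the family. The beta chain, known as CD122, is known for its high level on memory CD8 T cells, NK cells and regulatory T cells.

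The arrays followed the sort. The probe sets shared by the near-identical genes Ly6c1 and Ly6c2 measured 7.88 to 8.69 on the log2 scale in Ly-6C-negative cells and 10.76 to 11.71 in Ly-6C-positive cells. The T cell genes Cd3e, Cd4 and Ccr7 differed by -0.016, -0.089 and 0.017 (log2, Ly-6C-negative minus Ly-6C-positive) and did not pass the test. Ly-6C-negative replicate 2 stood apart from the other arrays on the first principal component, with a score of 19.9 against scores from -10.0 to -0.26. Results for the receptor genes are therefore also given without that array.

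Of the 6 receptor genes, 1 differed between the populations: Il2rb was higher in Ly-6C-negative cells, 2.18-fold (95% interval 1.94 to 2.44). The alpha chains for IL-2, IL-7 and IL-4 and the chain for IL-21 did not pass the test, with differences from -0.042 to 0.12 on the log2 scale. Il15ra, the alpha chain for IL-15, lay lower in all 3 Ly-6C-negative arrays but did not pass either. The test was limma's moderated test, 2-sided, over all genes, with a threshold of 0.05 on the Benjamini-Hochberg adjusted p. By the same rule 29 of 19938 genes passed, 0.145%, of which 20 were higher (0.1%) and 9 lower (0.0451%).

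**Figure D1:**
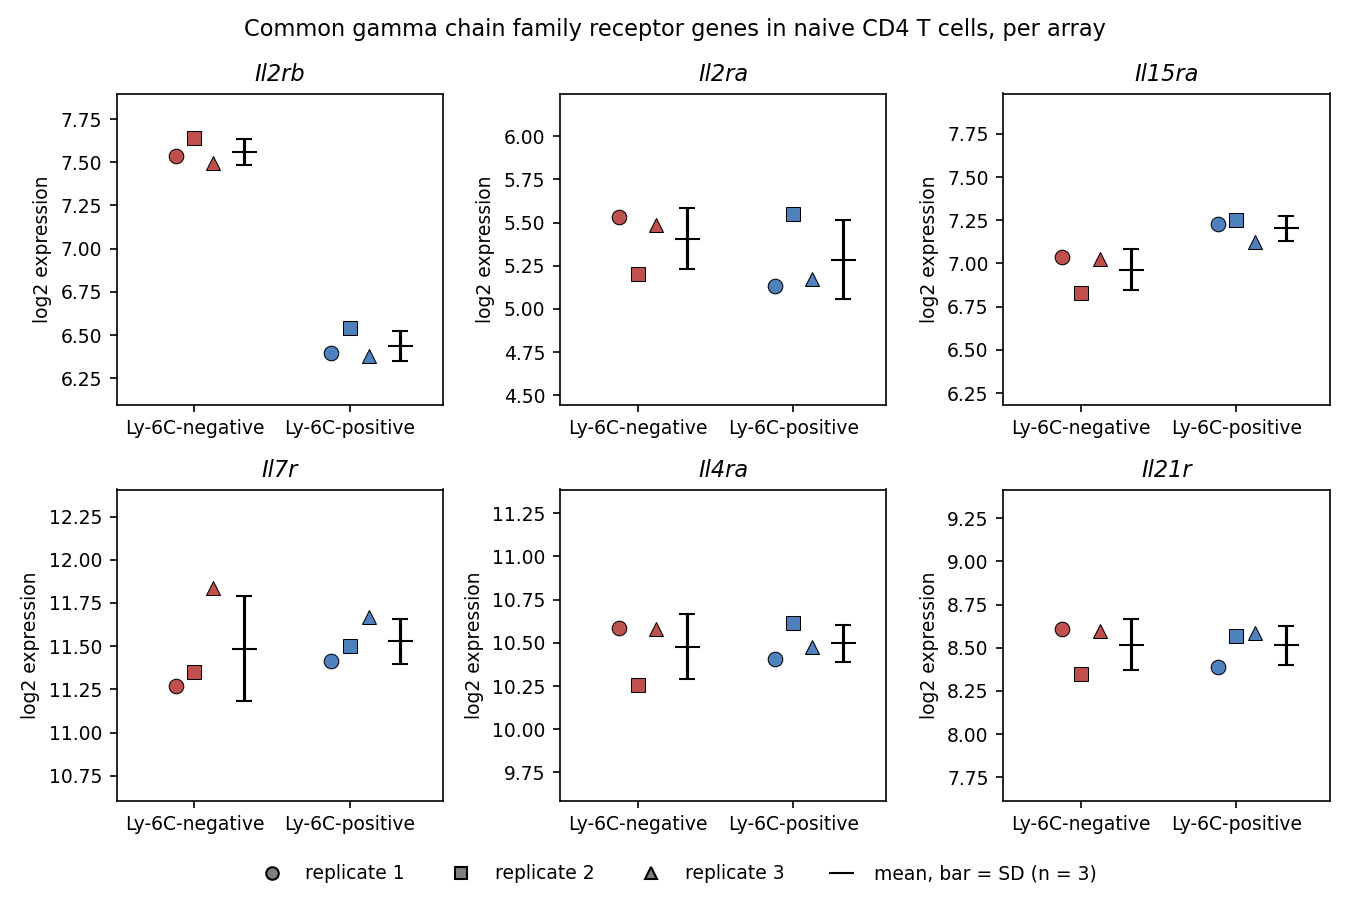
Log2 expression (vertical axis) of each receptor gene on the 3 Ly-6C-negative arrays (red) and the 3 Ly-6C-positive arrays (blue), with symbols for the replicate number and a bar for mean and SD (n = 3). Each panel spans the same range of log2 units around its own midpoint, so distances compare between panels and levels do not; Il2rb lies at 7.50 to 7.64 in Ly-6C-negative cells and at 6.38 to 6.54 in Ly-6C-positive cells.

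Il2rb encodes the signalling beta chain that the IL-2 and IL-15 receptors have in common. It measured 7.54, 7.64 and 7.50 (log2 expression) on Ly-6C-negative replicates 1, 2 and 3 and 6.39, 6.54 and 6.38 on Ly-6C-positive replicates 1, 2 and 3. Every Ly-6C-negative array was above every Ly-6C-positive array, with a gap of 0.96 between the nearest arrays, against SDs of 0.074 in Ly-6C-negative cells and 0.089 in Ly-6C-positive cells (n = 3 each). The difference was 1.12 ± 0.074 (standard error; limma adjusted p = 0.000860). It was 1.14, 1.10 and 1.12 between arrays of the same replicate number. Without Ly-6C-negative replicate 2 it was 1.08 (limma adjusted p = 0.000893). Among all 19938 genes Il2rb ranked 1 by unadjusted p and 3 by the size of an increase in Ly-6C-negative cells.

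Il15ra encodes the high-affinity alpha chain for IL-15, which can present the cytokine to a neighbouring cell that bears the beta and gamma chains. It measured 7.04, 6.83 and 7.03 (log2 expression) on the Ly-6C-negative arrays and 7.23, 7.25 and 7.12 on the Ly-6C-positive arrays. The groups did not overlap, but the nearest arrays were only 0.085 apart. The difference was -0.24 with a standard error of 0.079, and its 95% interval ran from -0.42 to -0.061 (limma adjusted p = 0.588). Without Ly-6C-negative replicate 2 it was -0.17 (limma adjusted p = 0.518). Groups were apart in 2 of the 6 receptor genes, Il2rb and Il15ra, and in 12.6% of all genes.

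Il2ra encodes the alpha chain that gives the IL-2 receptor its high affinity. It measured 5.53, 5.21 and 5.49 (log2 expression) on the Ly-6C-negative arrays and 5.14, 5.55 and 5.17 on the Ly-6C-positive arrays. The groups overlapped, and replicate 2 was the lowest of the Ly-6C-negative arrays and the highest of the Ly-6C-positive arrays. The difference was 0.12 (standard error 0.12, 95% interval -0.16 to 0.40, limma adjusted p = 0.916). Without Ly-6C-negative replicate 2 it was 0.22 (limma adjusted p = 0.579). Il2ra was dimmer than the median gene, where values of this kind compress differences.

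Il7r encodes the alpha chain of the IL-7 receptor, which also forms the receptor for TSLP with the chain encoded by Crlf2. It measured 11.27, 11.35 and 11.84 (log2 expression) on the Ly-6C-negative arrays and 11.41, 11.50 and 11.67 on the Ly-6C-positive arrays. The Ly-6C-negative arrays spread on both sides of the Ly-6C-positive ones, and replicate 3 was the brightest and replicate 1 the dimmest in either population. The difference was -0.042 (standard error 0.14, 95% interval -0.35 to 0.27, limma adjusted p = 0.981). When Ly-6C-negative replicate 2 was left out the sign turned, to 0.026 (limma adjusted p = 0.970), as it did without Ly-6C-negative replicate 1, at 0.064, and without Ly-6C-positive replicate 3, at 0.027. In the fit that took replicate number as a block, the standard error was 0.086 and the gene still did not pass (limma adjusted p = 0.961). Il7r had the largest SD of the 6 genes within a group, 0.31 in Ly-6C-negative cells.

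Il4ra encodes the alpha chain for IL-4, which also serves IL-13 when joined to the product of Il13ra1. It measured 10.59, 10.26 and 10.58 (log2 expression) on the Ly-6C-negative arrays and 10.40, 10.61 and 10.48 on the Ly-6C-positive arrays. The groups overlapped, with Ly-6C-negative replicate 2 below the other 5 arrays. The difference was -0.021 (standard error 0.10, 95% interval -0.25 to 0.20, limma adjusted p = 0.989), and without that array it was 0.088 (limma adjusted p = 0.763).

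Il21r encodes the private chain for IL-21, a cytokine of helper cells in follicles. It measured 8.61, 8.35 and 8.59 (log2 expression) on the Ly-6C-negative arrays and 8.39, 8.57 and 8.59 on the Ly-6C-positive arrays. The groups overlapped, and Ly-6C-negative replicate 2 was again the lowest of the 6 arrays. The difference was 0.0025 (standard error 0.092, 95% interval -0.20 to 0.21, limma adjusted p = 0.999). Without that array it was 0.088 (limma adjusted p = 0.767). For Il2ra, Il7r, Il4ra and Il21r the intervals together reached from -0.35 to 0.40, so each ended below the lower bound of the Il2rb interval, 0.96. The signs of Il7r, Il4ra and Il21r were not stable when single arrays were left out.

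**Figure D2:**
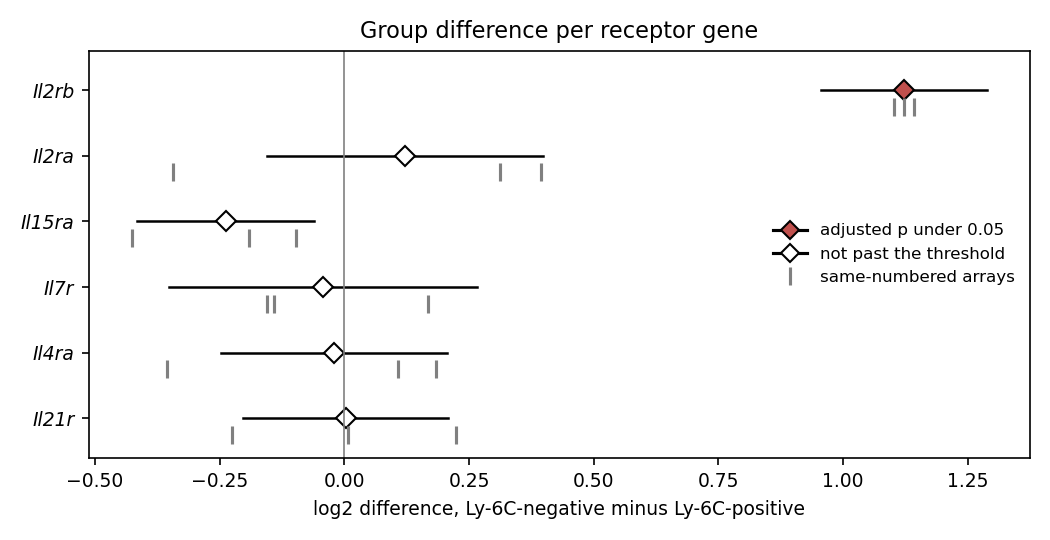
Difference in log2 expression, Ly-6C-negative minus Ly-6C-positive (horizontal axis), for each receptor gene, with its limma 95% interval as a line and the differences between same-numbered arrays as grey ticks. Il2rb stands at 1.12 with its 3 ticks between 1.10 and 1.14, while the other 5 genes lie between -0.24 and 0.12.

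Whether the difference of Il2rb was unlike that of another chain was tested on the log2 value of Il2rb minus that of the other gene within each array. The shift of this value between Ly-6C-negative and Ly-6C-positive cells was 1.36 against Il15ra, 1.16 against Il7r, 1.14 against Il4ra, 1.12 against Il21r and 1.001 against Il2ra. In each of the 5 pairs all Ly-6C-negative arrays were above all Ly-6C-positive arrays. Every pair reuses Il2rb, whose groups lie 0.96 apart, while the other genes differ by -0.24 to 0.12. That order therefore largely restates the Il2rb difference and is no separate evidence. The exact 2-sided permutation p was 0.1 for each pair and 0.1 after adjustment over the 5 pairs, which is the smallest p that 3 arrays against 3 can give, so this test cannot pass a threshold of 0.05. Against Il15ra, the partner of the beta chain in the IL-15 receptor, the within-array value averaged 0.59 ± 0.19 in Ly-6C-negative cells and -0.77 ± 0.063 in Ly-6C-positive cells (SD, n = 3 each). These averages depend on the brightness of each probe set and do not give the ratio of the chains.

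A pattern search covered 18286 genes other than Il2rb, without predicted models, small RNAs, receptor segments and genes named after RIKEN or other cDNA clones. The genes closest to Il2rb over the 6 arrays were found by the root mean square distance between values centred on each gene's mean. In order they were Itih5, a gene of the inter-alpha-trypsin inhibitor heavy chains, at a distance of 0.082, Izumo1r, the gene of folate receptor 4, at 0.12, and Chn2, the gene of a Rac regulator, at 0.16. Marcks, a protein kinase C substrate, followed at 0.19 and Cd200, whose product engages an inhibitory receptor, at 0.21. Itih5 averaged 6.78 ± 0.10 (log2 expression) in Ly-6C-negative cells and 5.75 ± 0.049 in Ly-6C-positive cells (SD, n = 3 each), and its difference of 1.03 was the nearest in size to that of Il2rb among these 5. The distance rests largely on the size of the group difference, which these genes share by selection.

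**Figure D3:**
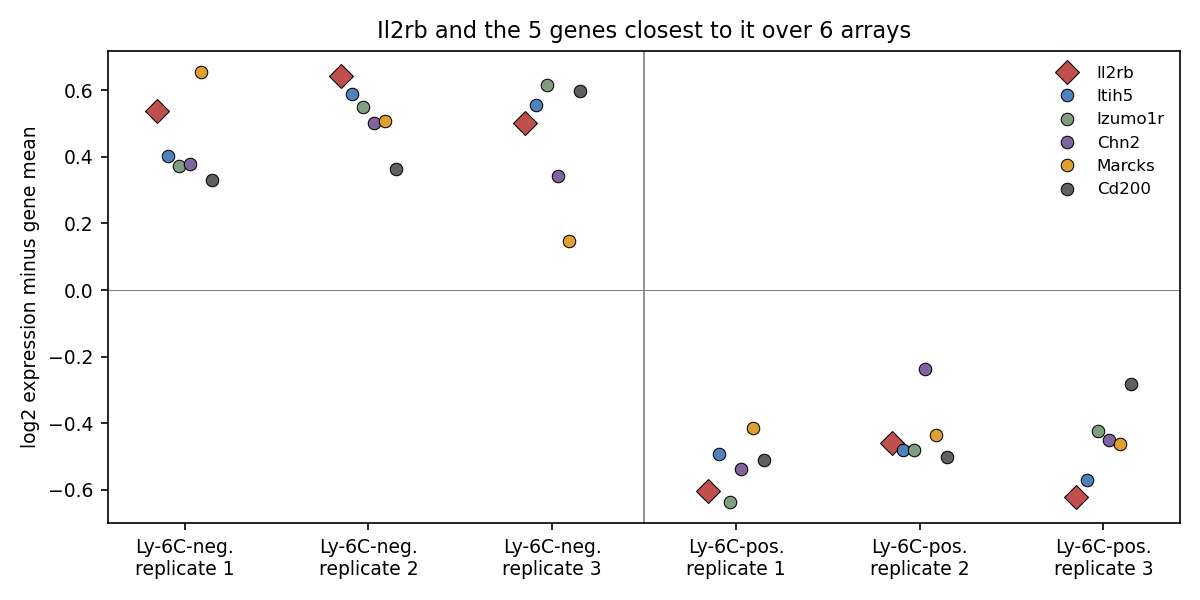
Log2 expression minus the gene's mean over the 6 arrays (vertical axis) for Il2rb (diamonds) and the 5 genes closest to it (circles), array by array. All 6 genes are above their mean on the Ly-6C-negative arrays and below it on the Ly-6C-positive arrays; Marcks varies most among Ly-6C-negative arrays, with an SD of 0.26.

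None of the measured chromosome neighbours of Il2rb passed the test. In the mouse reference gene order of GRCm38.p6, Il2rb lies on chromosome 15 between Tmprss6 and C1qtnf6, and of the 5 measured genes on either side 0 of 10 passed limma's threshold, 2 having an unadjusted p under 0.05. Their differences ran from -0.18 to 0.29 with a median of -0.017. Of all genes 6.71% had an unadjusted p under 0.05. Tmprss6 and C1qtnf6 themselves differed by -0.0094 and -0.093. Il2ra and Il15ra are next to each other on chromosome 2 and differed in opposite directions, at 0.12 and -0.24, neither past the threshold. Il4ra and Il21r are next to each other on chromosome 7 and differed by -0.021 and 0.0025.

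The cytokines and remaining receptor chains of the family did not pass the test. Of 7 measured cytokine genes 0 passed limma's threshold and 2 had an unadjusted p under 0.05, where 6.71% of all genes did. Il21 averaged 4.55 ± 0.17 (log2 expression) in Ly-6C-negative cells and 4.16 ± 0.096 in Ly-6C-positive cells (SD, n = 3 each), a difference of 0.38 (limma adjusted p = 0.364). Il2 averaged 4.87 ± 0.046 in Ly-6C-negative cells and 4.66 ± 0.069 in Ly-6C-positive cells (SD, n = 3 each), a difference of 0.21 (limma adjusted p = 0.586). The groups of both genes did not overlap. Groups were apart in 3 of the 7 cytokine genes and in 12.6% of all genes. Il21 and Il2 lay below the array medians, 6.25 to 6.29, and values of this kind compress differences in dim genes. Il7, a cytokine made mainly by stromal cells, differed by 0.0076, and Il15, made largely by myeloid and stromal cells, by -0.088. Of 4 further receptor chains, Il9r, Crlf2, Il13ra1 and Il13ra2, 0 passed and 1 had an unadjusted p under 0.05, Il13ra1 at -0.18 (limma adjusted p = 0.736).

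The relay from these receptors, JAKs, STATs and adaptors, had 0 of 15 measured genes past limma's threshold and 3 at an unadjusted p under 0.05, Pik3cd, Stat5b and Jak2. Of all genes 6.71% were under that unadjusted p. Groups were apart in 3 of the 15 genes and in 12.6% of all genes. Stat5b, 1 of the paired STAT5 genes, measured 8.48 to 8.59 (log2 expression) in Ly-6C-negative cells and 8.25 to 8.38 in Ly-6C-positive cells, a difference of 0.21 with no overlap (limma adjusted p = 0.577). Stat5a differed by 0.16, Jak1 by 0.10 and Stat6 by -0.010. Pik3cd, the PI3-kinase subunit gene, measured 9.09 to 9.12 in Ly-6C-negative cells and 8.87 to 8.91 in Ly-6C-positive cells, a difference of 0.22 (limma adjusted p = 0.473). Jak3 was not analysed here.

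Feedback genes and phosphatases, which end the signal, had 0 of 8 genes past limma's threshold and 2 at an unadjusted p under 0.05. Of all genes 6.71% were under that unadjusted p. Cish, a STAT5 target that dampens the IL-2 receptor, averaged 6.60 ± 0.11 (log2 expression) in Ly-6C-negative cells and 6.38 ± 0.083 in Ly-6C-positive cells (SD, n = 3 each), a difference of 0.22 (limma adjusted p = 0.633). Sh2b3, the gene of the adaptor Lnk, differed by 0.26 (limma adjusted p = 0.578). Socs1 differed by 0.19, Socs2 by -0.049 and Socs3 by -0.069.

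Genes that cytokines of the family are known to induce had 0 of 19 measured members past limma's threshold, 5 at an unadjusted p under 0.05, and a median difference of 0.067 against -0.0048 for all genes. Of all genes 6.71% were under that unadjusted p. Groups were apart in 8 of the 19 genes and in 12.6% of all genes. In the blocked fit 1 was higher and 1 lower past the threshold, as were 0.14% and 0.0652% of all genes, 0.206% together. The block rests on pairs of arrays read from these same data. Id2, an inhibitor of E proteins, measured 9.16 to 9.53 (log2 expression) in Ly-6C-negative cells and 8.57 to 8.86 in Ly-6C-positive cells, a difference of 0.58 (limma adjusted p = 0.144, and 0.0158 in the blocked fit). Prf1, the perforin gene, measured 7.25 to 7.67 in Ly-6C-negative cells and 8.01 to 8.43 in Ly-6C-positive cells, a difference of -0.70 (limma adjusted p = 0.145, and 0.00848 in the blocked fit). Bcl2, the survival gene that IL-7 sustains, differed by 0.21 with no overlap and did not pass (limma adjusted p = 0.578).

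Transcription factors tied to receptor genes of the family had 0 of 17 measured members past limma's threshold and 4 at an unadjusted p under 0.05, Eomes, Gfi1, Bach2 and Nfatc1. Groups were apart in 3 of the 17 genes and in 12.6% of all genes. Eomes, a T-box factor known to act on Il2rb, averaged 6.55 ± 0.095 (log2 expression) in Ly-6C-negative cells and 6.28 ± 0.075 in Ly-6C-positive cells (SD, n = 3 each), a difference of 0.27 with no overlap (limma adjusted p = 0.473). Tbx21, the gene of the related factor T-bet, differed by -0.0013 (limma adjusted p = 0.999). Gfi1, a repressor of Il7r, differed by 0.24, and Foxo1, an activator of Il7r, by 0.027. Over the 67 distinct pathway genes measured, 15 had an unadjusted p under 0.05 (22.4%, against 6.71% of all genes) and 44 lay above 0 (65.7%, against 47.8%). The lists were chosen with earlier results of these data known. Pathway genes were also brighter, at a mean log2 level per array of 7.58 to 7.65 against 6.64 to 6.65 for all genes. Whether the pathway differed as a set was not tested.

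**Figure D4:**
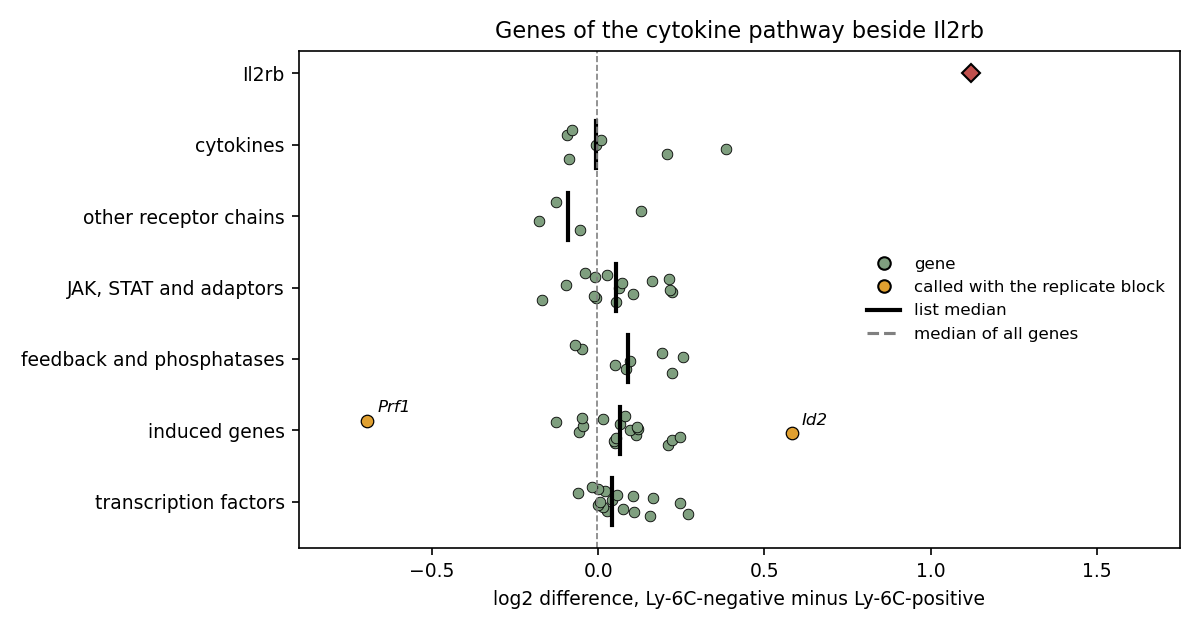
Difference in log2 expression, Ly-6C-negative minus Ly-6C-positive (horizontal axis), for every measured gene of 6 pathway lists (points), with the list median (black bar), the median of all genes (dashed line) and Il2rb (diamond) for scale. Outside Id2 at 0.58 and Prf1 at -0.70, which passed with the replicate block, the listed genes lie between -0.18 and 0.38.

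Levels of markers of other cell types, some of them known to bear CD122, were set beside Il2rb. This was done because in bulk RNA more cells of a type and more RNA per cell cannot be told apart. Of 12 regulatory T cell markers 4 rose in Ly-6C-negative cells, Ctla4 by 1.34, Izumo1r by 1.03, Ikzf2 by 0.63 and Gpr83 by 0.56 (limma adjusted p from 0.00200 to 0.0325), and 0 fell. By the same test 0.1% of all genes rose. In this list, chosen with earlier results known, 10 of 12 differences were above 0. Tnfrsf18 at -0.012 and Itgae at -0.088 were below it. The mean log2 level over the list was 7.34 to 7.43 in Ly-6C-negative cells and 6.96 to 6.99 in Ly-6C-positive cells. Foxp3, which defines these cells and was sorted against, measured 6.47 to 6.85 in Ly-6C-negative cells and 6.57 to 6.71 in Ly-6C-positive cells, a difference of 0.013. The part of regulatory T cell transcripts in the Il2rb difference was not tested.

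Of 14 NK cell markers 0 rose and 2 fell, Klrd1, which was 2.83-fold lower, and Gzma, 1.61-fold lower (limma adjusted p of 0.0263 and 0.0392), joined by Prf1 with the replicate block. Without the block 0.0451% of all genes fell. The mean log2 level of the 14 NK markers was 5.36 to 5.46 in Ly-6C-negative cells and 5.61 to 5.62 in Ly-6C-positive cells. The median difference over the 14 NK markers was -0.033, with 5 of 14 above 0, and the differences of largest size were those of Klrd1, Prf1 and Gzma. Ncr1 and Klrb1c, which define NK cells, measured 4.26 to 4.43 and 3.83 to 3.86 in Ly-6C-negative cells and 4.27 to 4.53 and 3.82 to 3.85 in Ly-6C-positive cells. Of 11 measured memory CD4 markers 0 rose and 1 fell, Il18r1 by 0.67, and Cd44, low by the sort, measured 6.92 to 7.04 in Ly-6C-negative cells and 7.20 to 7.28 in Ly-6C-positive cells (limma adjusted p = 0.427). Of these 11 markers 7 had a difference above 0, with a median of 0.12, and at an unadjusted p under 0.05 in limma 3 were higher and 2 lower. The 3 higher ones, Ccl5, Maf and Eomes, had differences of 0.59, 0.29 and 0.27 and did not pass the adjusted threshold. Of 5 CD8 T cell markers Klrd1 fell and the other 4 did not pass. Of these 5 markers 0 had a difference above 0, with a median of -0.12. At an unadjusted p under 0.05 in limma 2 were lower. Differences ran from -1.50 for Klrd1 to -0.029 for Cd8a, with Crtam at -0.29. The mean log2 level of the 5 CD8 markers was 6.27 to 6.41 in Ly-6C-negative cells and 6.63 to 6.79 in Ly-6C-positive cells. The mean log2 level of B cell markers was 5.19 to 5.23 in Ly-6C-negative cells and 5.18 to 5.21 in Ly-6C-positive cells, and that of myeloid markers 5.00 to 5.05 in Ly-6C-negative cells and 5.00 to 5.06 in Ly-6C-positive cells. With 1 array left out, Izumo1r passed in all 6 fits. Ctla4 lost its call in 3 of them, without Ly-6C-negative replicate 1 or Ly-6C-positive replicates 2 or 3, and Ikzf2 and Il18r1 lost theirs in those and without Ly-6C-positive replicate 1. Gpr83, Klrd1 and Gzma lost theirs in 5, all except the fit that omitted Ly-6C-negative replicate 2, with limma adjusted p of up to 0.290 for Gzma. B cell, myeloid and NKT or gamma-delta markers had 0 genes past limma's threshold, with 1 of 8, 2 of 10 and 0 of 6 at an unadjusted p under 0.05. Of all genes 6.71% were under that unadjusted p.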

How the data were processed

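Total RNA of sorted cells was amplified and hybridised on 6 Affymetrix arrays, 3 per population. The values, deposited on a log2 scale for 28853 probe sets, were made with RMA and Partek, per the submitters' processing notes, which give no versions or roles. RMA normalizes arrays to 1 distribution, so a change common to all genes is lost, and it compresses dim genes. The genome build is not given in the sources used here.

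Names came from GEO's annotation of the array (21789 with 1 symbol, 1621 with several, 5443 not listed), symbols were updated by Entrez ID (21698 matched) and the brightest probe set per gene was kept. Values were used as deposited in limma 3.58.1 (R 4.3.3, lmFit and eBayes) with no covariate and no filter, adjusted over 19938 genes. Within-array contrasts used exact permutation (scipy 1.17.1); of 6 planned, 5 could be made. The limma fit without the block was tested on simulated data with planted shifts and independent noise. The other steps were not tested in this way.

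Replicate numbers are shared by both groups. Across genes, arrays that share a number deviated together from their groups (r of 0.129, 0.128 and 0.107), while arrays of different numbers gave r from -0.107 to -0.011. Deviations from a group mean cancel within the group. The negative values therefore follow largely from the positive ones and are no separate evidence. The numbers were therefore read as pairs from the data and a block was an alternative. The labels do not say what a number stands for, and these correlations are weak. Alternatives also included a second quantile normalization, median centring, leaving out dim genes, the mean of probe sets, every probe set as a feature, trend with robust eBayes, array weights and leaving out each array.

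The receptor genes and lists were chosen with earlier results of these data known. Named are all receptor genes, pathway genes past the threshold or with the smallest p, fixed signalling genes, marker genes past the threshold or defining a cell type, and the 5 genes nearest in pattern. Of 72 pathway genes 5 were not analysed here.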

Additional observations from a re-analysis of the deposited data

How the results depend on the processing

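Il2rb passed under all 14 alternatives, with a difference of 1.08 to 1.17 and a limma adjusted p of 0.000202, with the replicate number as a block, to 0.0215, without Ly-6C-positive replicate 3. Il15ra stayed between -0.28 and -0.17 and did not pass under any of its 14 alternatives (limma adjusted p of 0.404 to 0.996). Il2ra stayed between 0.046 and 0.25 under its 13 alternatives and did not pass; it was not tested without dim genes. The remaining 3 genes never passed but changed sign. Leaving out 1 array gave -0.062 to 0.088 for Il21r, -0.077 to 0.088 for Il4ra and -0.22 to 0.064 for Il7r. A second quantile normalization gave -0.022 for Il21r, and for Il4ra median centring gave 0.00012 and array weights 0.026. The count of genes past the threshold was 54 with array weights and 5 to 47 with 1 array left out, against 29. It was highest without Ly-6C-negative replicate 2 and lowest without Ly-6C-negative replicate 1 among the fits with 1 array left out. The cause was not tested. With every probe set as a feature 45 of 28853 probe sets passed, which is a count of probe sets and not of genes. Of the genes induced by the cytokines 2 passed with the replicate block and 1 with array weights, Prf1. The block changed no other call among the receptor genes or pathway lists. The 5 within-array contrasts kept their direction under 9 alternatives each, with an exact permutation p of 0.1 to 0.25, and none could reach 0.05. That direction follows largely from the size of the Il2rb difference.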
